A study of Mus musculus with 6 samples.

Results

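The integrated stress response is the program by which cells lower protein synthesis and switch on a repair program under many kinds of stress. Kinases that sense different stresses (PERK for misfolded protein in the endoplasmic reticulum, GCN2 for missing amino acids, PKR for double-stranded RNA and HRI for heme shortage and mitochondrial stress) phosphorylate the initiation factor eIF2α. General translation falls, while a few messages with upstream open reading frames, such as those of ATF4, ATF5 and CHOP, are translated more, and ATF4 then raises genes for amino acid supply, redox balance and feedback. The retinal pigment epithelium (RPE), an epithelium that recycles the chromophore of visual pigment and digests outer segment tips of the photoreceptors, has a high load of secretory, oxidative and degradative work.

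Transcript levels of 10 genes of this response were examined in the RPE of BALB/c mice, an albino strain. They were Atf4, Atf5 and Ddit3 (transcription factors), Ppp1r15a and Trib3 (feedback), Ddit4 and Sesn2 (brakes on growth signalling), and Asns, Psat1 and Chac1 (amino acid and glutathione metabolism). All 10 were measured, by 17 of the 34945 probe sets that carry exactly 1 gene symbol, out of 18193 genes in all. Where a gene had several probe sets, the brightest on average over the 6 arrays stood for it.

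The light-damaged group was 3 arrays from mice kept in the dark for 1 week and then exposed for 1.5 h to 6000 lux of white fluorescent light. Their RPE was collected 24 h later. The dark-adapted group was 3 arrays from mice with the same week in the dark and no light exposure in the labels. Values are log2 expression values made by RMA, and differences are light-damaged minus dark-adapted on that scale, ± standard error (n = 3 per group). Nothing in the labels tells whether replicates were different animals or pools of animals, and the p-values therefore cover only the variation among these arrays, some of which may be technical. The arrays measured RNA, and neither eIF2α phosphorylation nor protein was measured.

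Replicate 1 was unlike the other arrays in each group. Principal component 1 held 74.4% of the variance and placed these arrays at -68.73 (light-damaged) and -38.60 (dark-adapted), against 18.76 to 34.02 for the rest. The gap between the 3′ and 5′ control probe sets of Gapdh, which widens when RNA is degraded or copied short, was 2.48 (light-damaged) and 2.45 (dark-adapted) in replicate 1 and 1.54 to 1.80 in the others. The limma fit pairs the arrays by the labels' replicate number, kept as a block. RPE markers (10 genes) were bright on average in both groups. Their list means were 12.18 to 12.76 in light-damaged and 12.79 to 13.20 in dark-adapted arrays, while Best1 was dimmer (means of 7.94 and 8.14). All 10 had a difference below 0, and 9 had one in all 3 pairs, against 20.7% of all genes. At a limma adjusted p under 0.05, 2 of them were called lower, against 1.92% of all genes. Photoreceptor markers (9 genes) were also bright on average. Their list means were 11.71 to 12.70 in light-damaged and 12.34 to 13.01 in dark-adapted arrays, while Prph2 was dimmer (means of 6.92 and 7.23). All 9 had a difference below 0, 8 of them in all 3 pairs, and 5 were called lower. Macrophage and microglia markers averaged 10.44 to 10.51 in light-damaged and 9.50 to 9.67 in dark-adapted arrays. Of these 10, 9 were called higher, against 3.07% of all genes. Of 6 Müller glia and 6 endothelial markers, 1 each was called higher (Gfap by 0.74 and Vwf by 0.68). The median difference was -0.0023 over the Müller glia list, with 3 genes above 0 and 3 below. Over the endothelial list it was 0.09, with 4 above 0 and 2 below. The part of these shifts in the results below was not tested, and in such bulk samples fewer cells of a type and less RNA per cell cannot be told apart.

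Of the 10 genes, Ddit3 alone rose in light-damaged RPE at an adjusted p under 0.05 in limma, and none fell. Over all 18193 genes, 4.99% passed in either direction, 3.07% as rises and 1.92% as falls, and 1 call among 10 genes is not read as a result about the group. At an unadjusted p under 0.05, 2 of the 10 were higher (Ddit3 and Atf5, against 9.48% of all genes) and 1 was lower (Ddit4, against 9.57%), or 3 in all against 19% of all genes. Without the block 0 of the 10 passed at an adjusted p under 0.05 in limma, where 0.0495% of all genes did, and 2 passed at an unadjusted p under 0.05, against 5.94% of all genes. The median difference was 0.10 over the 10 genes and -0.0001 over all genes, and the median size of a difference, whatever its sign, was 0.16 against 0.11. Ddit3 was also the 1 gene of the 10 whose light-damaged and dark-adapted arrays did not overlap, which was the case for 10.3% of all genes (6.61% with the light-damaged arrays above, 3.72% with them below). A difference above 0 in all 3 pairs was seen for Ddit3, Atf5, Sesn2 and Asns (4 of 10, against 19.9% of all genes), and one below 0 in all 3 pairs for Ddit4 (1 of 10, against 20.7%).

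Ddit3 encodes CHOP, a bZIP transcription factor that dimerises with C/EBP proteins and is raised by ATF4. It had values of 10.67, 10.17 and 10.18 in light-damaged replicates 1, 2 and 3, against 9.99, 9.73 and 9.68 in dark-adapted ones. The lowest light-damaged array thus lay above the highest dark-adapted array, and replicate 1 was the highest of each group. The difference was 0.54 ± 0.09, or 1.46-fold (95% interval 1.25 to 1.70-fold, limma adjusted p = 0.0293), and the pairs gave 0.69, 0.44 and 0.50. Without the replicate 1 pair it was 0.47 ± 0.09 (adjusted p = 0.0320), and without replicate 3 it was 0.56 with an adjusted p of 0.143, which ends the call. Without the block the same difference had an unadjusted p of 0.0234 and an adjusted p of 0.640 in limma. A second, dimmer probe set gave 8.19, 8.10 and 8.27 in light-damaged arrays, against 8.02, 8.01 and 7.93 in dark-adapted arrays. These groups did not overlap either, but the difference was 0.20 ± 0.09 (limma adjusted p = 0.335 over all probe sets).

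**Figure D1:**
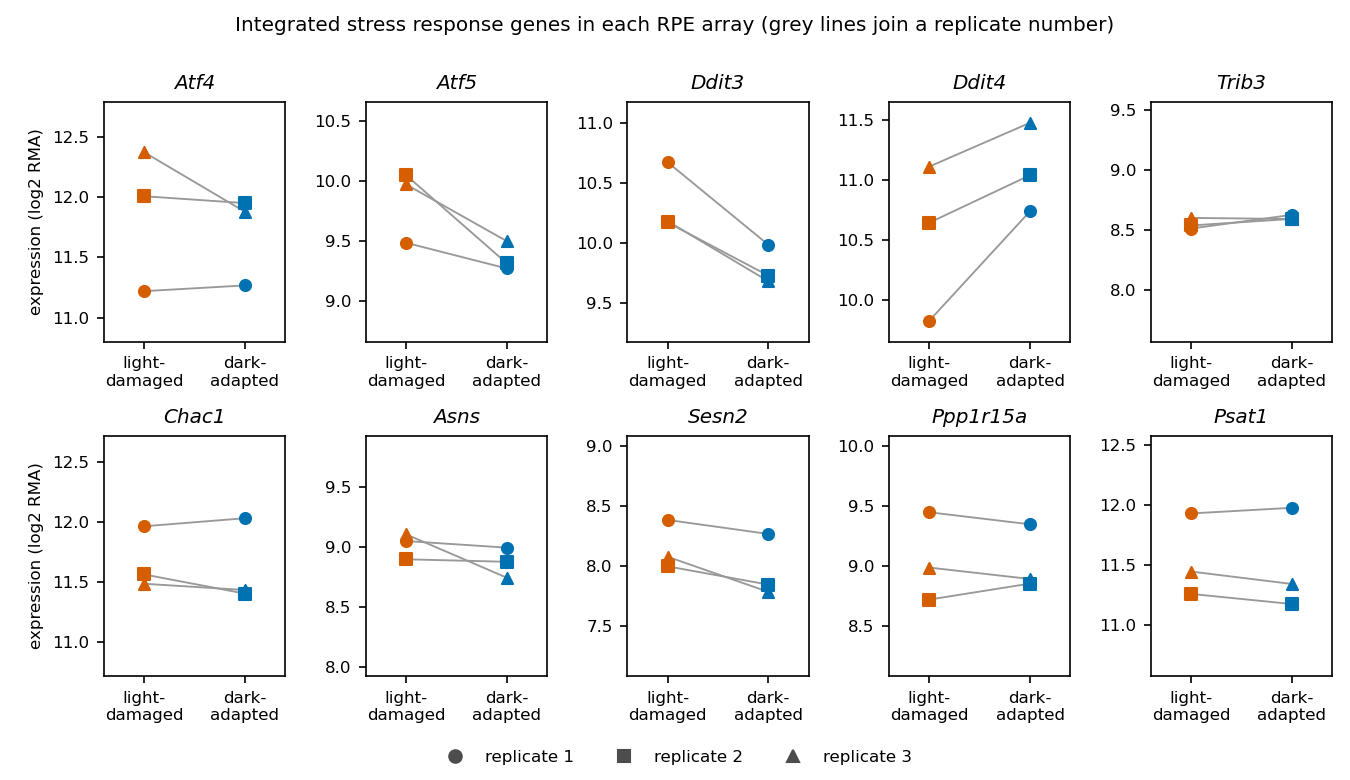
Log2 RMA value of each of the 10 genes (panels) in light-damaged (left, orange) and dark-adapted (right, blue) arrays, with marker shape for the replicate number and a grey line joining arrays of the same number; each vertical axis spans 2 log2 units around the gene's own values. All 3 lines of Ddit3, Atf5, Sesn2 and Asns slope down toward the dark-adapted side, those of Sesn2 and Asns by less, and all 3 of Ddit4 slope up. Chac1, Psat1 and Ppp1r15a are set apart mainly by replicate 1.

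Atf5, a relative of ATF4 that also directs the mitochondrial stress response, had the next largest positive difference. Its values were 9.49, 10.05 and 9.98 in light-damaged arrays, against 9.27, 9.32 and 9.50 in dark-adapted arrays. Light-damaged replicate 1 lay just below dark-adapted replicate 3, so the groups overlapped by this 1 array. The difference was 0.47 ± 0.12, or 1.39-fold (95% interval 1.14 to 1.69-fold), and did not pass (limma adjusted p = 0.0837). Without the replicate 1 pair Atf5 passed, at 0.60 ± 0.10 (adjusted p = 0.0213), in a fit where 6.84% of all genes did. In that fit 2 of the 10 genes, Ddit3 and Atf5, were called, both higher.

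Atf4, the central transcription factor of the response, is controlled mainly at translation, and its RNA had values of 11.22, 12.01 and 12.38 in light-damaged arrays, against 11.27, 11.95 and 11.88 in dark-adapted arrays. The groups overlapped widely, with replicate 1 the lowest array in each. The difference was 0.17 ± 0.12 (limma adjusted p = 0.558), and the pairs ranged from -0.05 to 0.49. Of its other probe sets, the nearly as bright one, an x_at probe set (some of its probes match other transcripts), gave 10.95, 11.84 and 11.97 in light-damaged arrays, against 10.80, 11.36 and 11.48 in dark-adapted arrays. That difference was 0.38 ± 0.10, above 0 in all 3 pairs (adjusted p = 0.113 over all probe sets), and 0.49 ± 0.09 without the replicate 1 pair (adjusted p = 0.0232). The third probe set, with a mean of 5.55 in light-damaged and 5.43 in dark-adapted arrays, differed by 0.12 ± 0.10.

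The feedback genes had differences near 0. Ppp1r15a encodes GADD34, which brings a phosphatase to eIF2α and so ends the response, and had values of 9.45, 8.72 and 8.98 in light-damaged arrays, against 9.34, 8.85 and 8.89 in dark-adapted arrays. The difference was 0.02 ± 0.09 (95% interval 0.867 to 1.19-fold, limma adjusted p = 0.942). Trib3, a pseudokinase raised by ATF4 and CHOP that binds ATF4 and restrains it, ranged from 8.51 to 8.60 in light-damaged and from 8.59 to 8.62 in dark-adapted arrays, the narrowest spread of the 10. Its difference was -0.05 ± 0.09 (95% interval 0.835 to 1.11-fold, adjusted p = 0.819). It was measured by an x_at probe set, and the other probe set differed by -0.01 ± 0.13.

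Ddit4 and Sesn2, which both restrain the growth kinase complex mTORC1, went opposite ways. Ddit4 encodes REDD1 and is known to respond to hypoxia and glucocorticoids as well as to ATF4. It had values of 9.83, 10.64 and 11.11 in light-damaged arrays, against 10.74, 11.04 and 11.48 in dark-adapted arrays. Each light-damaged array was below the dark-adapted array of its number, with pair differences of -0.91, -0.40 and -0.36, although the groups overlapped. The difference was -0.56 ± 0.13, or 0.680-fold (95% interval 0.548 to 0.843-fold), and did not pass (limma adjusted p = 0.0666). Without the replicate 1 pair it was -0.38 ± 0.09 (adjusted p = 0.0601). Sesn2, a leucine sensor and antioxidant regulator, had values of 8.387, 8.001 and 8.081 in light-damaged arrays, against 8.270, 7.849 and 7.788 in dark-adapted arrays, a difference of 0.19 ± 0.09 (adjusted p = 0.335). Its second probe set gave 0.18 ± 0.11, but the pairs disagreed in sign.

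**Figure D2:**
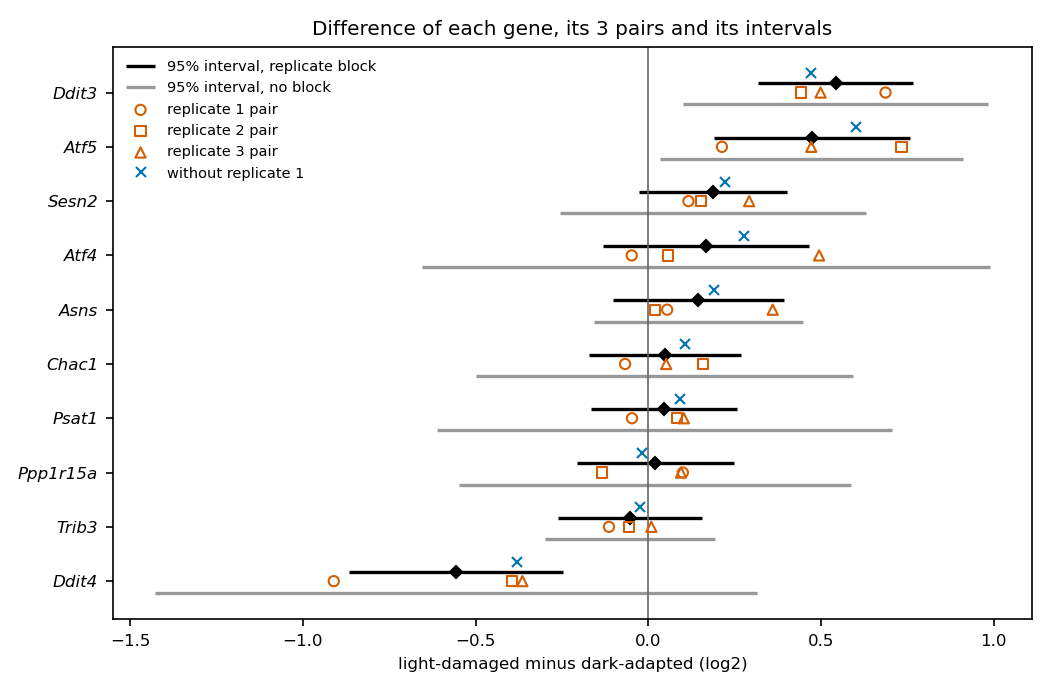
Light-damaged minus dark-adapted difference (horizontal axis, log2) of each gene, ordered by size: black diamonds and bars are the estimate and 95% interval with the replicate block, grey bars the interval without it, open orange symbols the 3 pairs, and blue crosses the estimate without replicate 1. With the block the intervals of Ddit3, Atf5 and Ddit4 leave out 0 and those of the other 7 genes hold it; without the block that of Ddit4 holds 0 too.

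The metabolic targets of ATF4 showed no call. Asns makes asparagine and had values of 9.05, 8.90 and 9.11 in light-damaged arrays, against 8.99, 8.88 and 8.75 in dark-adapted arrays. The difference was 0.15 ± 0.10 (limma adjusted p = 0.540), most of it from pair 3. Its dimmer x_at probe set had values of 6.62, 6.42 and 6.88 in light-damaged arrays, against 6.08, 6.29 and 6.20 in dark-adapted arrays. Here the groups did not overlap, with a difference of 0.45 ± 0.12 (adjusted p = 0.109 over all probe sets). Chac1, which breaks down glutathione and is among the strongest targets of ATF4 in stressed cells, had values of 11.97, 11.57 and 11.49 in light-damaged arrays, against 12.03, 11.41 and 11.44 in dark-adapted arrays. Its difference was 0.05 ± 0.09 (95% interval 0.888 to 1.20-fold, adjusted p = 0.850). Psat1, an aminotransferase of serine synthesis, ranged from 11.26 to 11.93 in light-damaged and from 11.17 to 11.97 in dark-adapted arrays. The difference was 0.05 ± 0.09 (adjusted p = 0.849) by an s_at probe set, while the other probe set gave -0.02 ± 0.15 and ranged from -0.47 to 0.25 over the pairs.

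For 7 of the 10 genes, all but Ddit3, Atf5 and Ddit4, the 95% interval with the block lay between a 1.5-fold rise and a 1.5-fold fall. Without the block that held for 2 genes, Trib3 and Asns. For several genes the step between replicate 1 and the rest was larger than that between the groups. Replicate 1 was the highest array of both groups for 5 genes (Ddit3, Chac1, Sesn2, Ppp1r15a and Psat1) and the lowest of both for 3 (Atf4, Atf5 and Ddit4). Replicate 1 minus the mean of the other arrays of its group was -0.97 in light-damaged and -0.65 in dark-adapted RPE for Atf4, and 0.58 in light-damaged and 0.72 in dark-adapted RPE for Psat1. The 3′ to 5′ gap of Gapdh given above moved with this split, and its part in it was not tested.

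**Figure D3:**
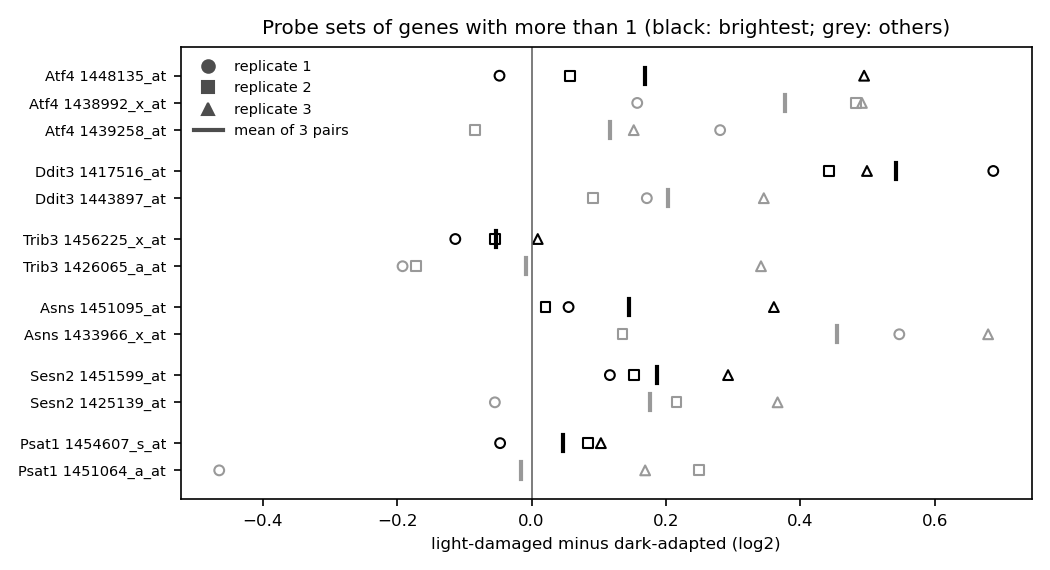
Light-damaged minus dark-adapted difference (horizontal axis, log2) of every probe set of the 6 genes with more than 1, in black for the brightest and grey for the others; symbols are the 3 pairs and the vertical bar their mean. Of 7 other probe sets, 6 had the sign of the brightest and 1, of Psat1, the opposite sign, and the grey Atf4 x_at and Asns x_at bars lie to the right of the black ones.

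ATF4 and CHOP dimers act through composite sites that join a C/EBP and an ATF motif. The stretches before the start site of the genes are shown for Ddit3, which rose, and for the 3 genes with a match in the window, none of which was called. Sequences are from RefSeq (GRCm38.p6), 5′ to 3′ on the gene's strand, and capitals mark a match to TGANGNAA, the core of the composite site, or to TGACGTCA, the cyclic AMP response element that ATF factors also bind (the second Chac1 match is on the other strand).
Ddit3, chr10:127290543-127290792, plus strand: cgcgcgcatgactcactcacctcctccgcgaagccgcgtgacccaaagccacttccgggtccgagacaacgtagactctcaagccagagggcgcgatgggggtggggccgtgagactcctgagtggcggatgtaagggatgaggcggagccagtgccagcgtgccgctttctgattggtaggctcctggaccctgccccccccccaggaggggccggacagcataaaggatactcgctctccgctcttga
Chac1, chr2:119350992-119351071, plus strand: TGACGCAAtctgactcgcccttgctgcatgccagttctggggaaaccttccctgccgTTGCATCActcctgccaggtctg
Asns, chr6:7693210-7693269, minus strand: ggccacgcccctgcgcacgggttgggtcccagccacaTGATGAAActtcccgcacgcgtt
Ppp1r15a, chr7:45526269-45526328, minus strand: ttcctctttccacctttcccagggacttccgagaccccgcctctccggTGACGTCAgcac
The search covered both strands of the 250 bases before the start of all 10 genes (12 windows, since Atf5 and Psat1 have 2 starts). TGANGNAA matched in 2 genes, at 2 places in Chac1 and 1 in Asns, and in 14.1% of 32851 windows of all genes. TGACGTCA matched in Ppp1r15a, against 1.55% of all windows. The endoplasmic reticulum stress element (ERSE) matched in 0 of the 10 genes and in 0.113% of all windows. A match is a description of letters and not a site, and a window without one says only that these letters are not in it.

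The partners with which ATF4 and CHOP dimerise or compete included larger rises than any of the 10 genes. Of 13 bZIP factors, 4 rose and 0 fell at a limma adjusted p under 0.05, against 3.07% and 1.92% of all genes. Their median difference was 0.19. Cebpd, an acute phase C/EBP factor, averaged 12.78 in light-damaged and 10.10 in dark-adapted RPE, a 6.39-fold rise (2.68 ± 0.14, limma adjusted p = 7.9e-04). A second, dimmer Cebpd probe set rose 1.79-fold (0.84 ± 0.13, adjusted p = 0.0203 over all probe sets). Atf3, a stress-induced repressor that ATF4 raises, had values of 9.76, 10.47 and 10.86 in light-damaged arrays, against 8.91, 8.74 and 8.52 in dark-adapted arrays (1.64 ± 0.25, adjusted p = 0.0205). Cebpb, the usual partner of CHOP, had values of 8.87, 8.60 and 8.54 in light-damaged arrays, against 7.77, 7.49 and 7.42 in dark-adapted arrays. It rose 2.16-fold (adjusted p = 0.0023), while its dimmer probe set gave 0.32 against 1.11. Jun rose by 0.47 ± 0.09 (adjusted p = 0.0393), although its groups overlapped. Its second probe set gave 0.76 ± 0.21 (limma adjusted p = 0.116 over all probe sets), with pair differences of 0.07, 0.94 and 1.25. Without replicate 2, and also without replicate 3, 3 of the 13 factors were called, all higher. Cebpg, the other main partner of ATF4, differed by 0.14 ± 0.09 and did not pass.

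Upstream of ATF4 no transcript was called. Of the 4 kinase genes, Eif2ak2, which encodes the interferon-inducible PKR, differed by 0.31 ± 0.09 (limma adjusted p = 0.106) and Eif2ak4, which encodes GCN2, by -0.23 ± 0.09 (adjusted p = 0.254). Of 9 genes for eIF2, its exchange factor eIF2B and its phosphatase, Eif2s2, the beta subunit, differed by 0.42 ± 0.09 (adjusted p = 0.0584), and Ppp1ca, the catalytic subunit, by 0.11 ± 0.09. At an unadjusted p under 0.05, 2 of the 4 kinase genes and 1 of the 9 passed in limma, against 19% of all genes.

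The other targets of ATF4 and CHOP were mixed. Of 10 genes for serine, folate-linked carbon, proline and cysteine synthesis, 3 rose and 2 fell, against 3.07% and 1.92% of all genes. The median difference of the 10 was 0.21. Aldh18a1, the entry enzyme of proline synthesis, rose 1.73-fold (adjusted p = 0.0380), Mthfd1l, a mitochondrial folate enzyme, 1.57-fold (adjusted p = 0.0266), and Shmt2, which moves a carbon from serine to folate in mitochondria, 1.48-fold (limma adjusted p = 0.0202). All 3 rises and 1 of the 2 falls lost their call without replicate 3, in a fit that called 1.25% of all genes. Other probe sets of Aldh18a1 gave 0.31 to 0.43 (limma adjusted p of 0.0835 to 0.331 over all probe sets). Those of Shmt2 gave 0.19, 0.22 and 0.45 (adjusted p of 0.0653 to 0.440), and for the lower 2 values the pairs disagreed in sign. Phgdh, the enzyme that opens serine synthesis, fell by 0.59 ± 0.11 (adjusted p = 0.0394), and Cth, which makes cysteine from cystathionine, by 0.98 ± 0.10 (adjusted p = 0.0065). The groups of Cth overlapped, at 7.46 to 8.66 in light-damaged and 8.58 to 9.69 in dark-adapted arrays. Phgdh and Psat1 act in the same pathway, and Psat1 differed by 0.05 as given above. Phgdh had values of 11.52, 11.19 and 11.15 in light-damaged arrays, against 12.00, 11.61 and 12.01 in dark-adapted arrays, and the groups did not overlap. Its other probe sets gave -0.46, -0.48 and -0.49, and none passed (limma adjusted p of 0.0783 to 0.122 over all probe sets). For the last of them the groups overlapped.

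Of 16 further targets, Eif4ebp1, an inhibitor of cap-dependent translation, rose 2.31-fold (adjusted p = 0.0089), Nupr1, a stress-induced chromatin protein, 2.09-fold (adjusted p = 0.0343), and the cell cycle inhibitor Cdkn1a, better known as a p53 target, 1.85-fold (limma adjusted p = 0.0049). Vldlr, a lipoprotein receptor, fell by 0.55 ± 0.11 (adjusted p = 0.0424). It lost its call without replicate 1 (adjusted p = 0.0566), and also without replicate 2 or replicate 3. Without replicate 3, 2 of the rises were called. With all replicates, 3 of the 16 thus rose and 1 fell, against 3.07% and 1.92% of all genes. The other 12 did not pass, and the median of all 16 was 0.0070. Eif4ebp1 had values of 9.879, 9.033 and 8.935 in light-damaged arrays, against 8.260, 7.967 and 7.995 in dark-adapted arrays, with no overlap. The groups of Cdkn1a overlapped slightly, at 9.584 to 10.452 in light-damaged and 8.690 to 9.587 in dark-adapted arrays.

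Amino acid transporters and tRNA synthetases, which ATF4 raises in cells short of amino acids, held no call. All 13 genes of the synthetase list had a difference above 0, 9 of them in all 3 pairs, with a median of 0.13 and a range of 0.04 to 0.36. The list also holds the gene for a tRNA export receptor, which is not a synthetase and had the smallest difference. Over all genes, 9084 of 18193 had a difference above 0, and 19.9% had one in all 3 pairs. The lowest p-values belonged to Aars (0.36 ± 0.09, limma adjusted p = 0.0802) and Gars (0.35 ± 0.12, adjusted p = 0.193). Of 10 transporter genes, 7 had a difference above 0, with a median of 0.04. Slc7a11, the cystine importer, differed by 0.25 ± 0.09 and Slc6a9, a glycine transporter, by -0.26 ± 0.10, neither past the threshold. At an unadjusted p under 0.05, 4 synthetase and 2 transporter genes passed, against 19% of all genes. Of 15 chaperone and sensor genes of the other arms of the unfolded protein response, none was called and 3 passed at an unadjusted p under 0.05, about the share of all genes. Hyou1 differed by 0.37 ± 0.09 (adjusted p = 0.0798), Sdf2l1 by 0.42 ± 0.12, and Hspa5, the main chaperone of the compartment, by -0.06 ± 0.27.

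**Figure D4:**
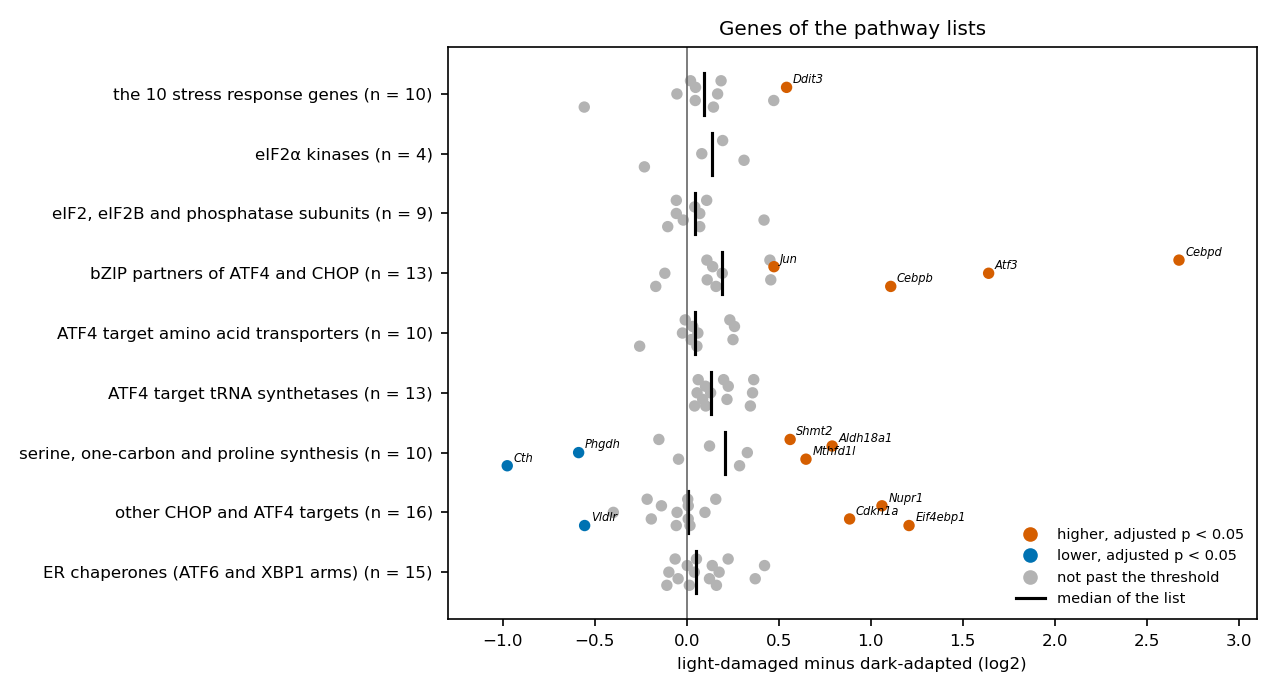
Light-damaged minus dark-adapted difference (horizontal axis, log2) of every measured gene of the 10-gene group and the 8 partner lists (rows), in orange for rises and blue for falls at a limma adjusted p under 0.05, grey for the rest, with the list median as a black bar. Apart from Ddit3 in the row of the 10 genes, the called genes lie in the bZIP row, from Jun at 0.47 to Cebpd at 2.68, and in the 2 rows of metabolic and further targets, while the kinase, translation factor, transporter, synthetase and chaperone rows hold grey points only.

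In all, 13 of the 90 genes of these lists passed, 10 as rises and 3 as falls. Of all genes 4.99% passed, 3.07% as rises and 1.92% as falls. For 10 of the 13, further probe sets existed, and all 22 of these had the sign of the brightest. At an unadjusted p under 0.05, 18 of the 22 passed in limma, against 19% of all genes. At an adjusted p under 0.05 over all probe sets, a further probe set each of Cebpd, Nupr1, Vldlr, Eif4ebp1 and Cdkn1a passed. None of Jun, Cebpb, Phgdh, Shmt2 or Aldh18a1 did. The 22 come from genes called on the same arrays, so their signs are not independent evidence. The probe sets used for Phgdh, Shmt2, Aldh18a1, Nupr1, Vldlr and Eif4ebp1 were x_at ones. Without the block none of the 90 passed in limma at an adjusted p under 0.05, and 15 did at an unadjusted p under 0.05, against 5.94% of all genes. Without the replicate 1 pair 18 passed, 12 of them among the 13, in a fit that called 6.84% of all genes. Without replicate 3 the count was 6, in a fit that called 1.25% of all genes.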

How the data were processed

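The authors deposited log2 values per probe set for 6 Affymetrix mouse arrays (3.72 to 14.82, without detection calls). RMA is listed in the submitters' processing notes, with its version not given in the sources used here, and it compresses differences of dim genes. Of 45101 probe sets, those with exactly 1 symbol in the platform annotation were kept, which left 18193 genes.

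These were fitted by limma 3.58.1 (R 4.3.3) with replicate number as a block (2 residual degrees of freedom) and Benjamini-Hochberg adjustment, calling genes under 0.05. Other probe sets were fitted among all 34945. Pairing by number was set in the design, and the labels do not say what a number shares. As a check, deviations from group means correlated across genes at 0.89, 0.62 and 0.86 for equal numbers, against a bound of 0.1. Light-damaged replicate 3 and dark-adapted replicate 2 correlated at 0.65, so numbers 2 and 3 pair less surely.

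Members and lists were chosen with earlier results of these data known. Named were all members and, per list, up to 4 called genes or, with none called, the 2 of smallest p. Cebpg, Hspa5 and Phgdh (the fifth called gene of its list) were named after their values were seen. Eif2s1, Pycr1 and Gdf15 were not analysed here. Promoters came from RefSeq (GRCm38.p6, 10 of 10 genes matched). The fit was tested on simulated data with planted changes larger than any difference of the 10 genes, which does not gauge its power at their size. Alternatives covered the block, array weights, probe set choice, filters, normalization and left-out replicates.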

Additional observations from a re-analysis of the deposited data

How the results depend on the processing

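Each result was recomputed under 14 alternatives, 1 of them (no block and no replicate 1 arrays) chosen after seeing the data. Of the 10 genes, 1 was called with the replicate block and 0 without it, 3 with array weights (Ddit3 and Atf5 higher, Ddit4 lower) and 2 without both the block and replicate 1. Leaving out a replicate pair gave 0 to 2. Over all genes, 908 calls became 9 without the block, 1875 with array weights and 228 to 1245 without a pair. Over the 90 list genes, 13 became 0 without the block, 23 with array weights and 6 to 18 without a pair. Ddit3 kept its call in 12 of 14 alternatives, with differences of 0.37 to 0.59 over all of them. Of 140 values of single genes, 129 kept their direction and side of the threshold. Those that changed sign were small ones, namely Chac1 (-0.0073 to 0.106 as pairs were left out, lowest without replicate 2), Ppp1r15a (-0.019 to 0.0976, below 0 without replicate 1, with or without the block, and at -0.016 without replicate 3), and Psat1 at -0.016 with its most variable probe set. Fits without a pair have 1 residual degree of freedom and lean on the variance shared across genes. Why these values changed was not tested.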

Other observations

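The endoplasmic reticulum chaperone list, looked at again after its values were seen, had a median difference of -0.06 in pair 1, 0.27 in pair 2 and 0.21 in pair 3. Its list means were 9.93, 10.71 and 10.76 in light-damaged replicates 1, 2 and 3, against 10.11, 10.45 and 10.55 in dark-adapted ones. Without the replicate 1 pair the median was 0.24 and 2 of 15 genes were called, in a fit that called 6.84% of all genes. Hspa5, which encodes the chaperone BiP, followed the same course, with a difference of -0.06 over all pairs and an adjusted p of 0.0605 in limma without replicate 1. Whether the replicate 1 pair differed from the others in this list was not tested.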
